A study of Mus musculus with 2 samples.

Results

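The 7 genes described here are Pou5f1, Dppa2, Dppa3, Dppa4, Dppa5a, Utf1 and Sall4, general pluripotency genes of the mouse embryo and of embryonic stem cells (mESCs). They are 7 of the 22556 genes in the count table, they were chosen by name, and several were chosen because their counts differ strongly between the libraries. All differences of these genes between libraries are therefore given as description, with no test. The libraries came from 1 group, uninduced iXist-ChrX-Dom mESCs at 0 h, untreated, with 2 replicates. This is a female line of the strain Dom/129S x Cast, in which a TetOn promoter stands in place of the endogenous Xist promoter on the Dom/129S allele. The cells were grown in serum with LIF on inactivated fibroblast feeders, which were taken away by pre-plating. Nothing in the labels says whether the replicates were separate cultures, so their spread may be technical.

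Pou5f1 encodes Oct4, the POU-domain transcription factor that mESCs need in order to stay pluripotent, and it binds DNA together with Sox2. Sall4 is a zinc finger factor of the same network that recruits the NuRD deacetylase complex, and Utf1 is a chromatin-associated protein of undifferentiated cells. Dppa2 and Dppa4 are partner proteins with a SAP domain that bind gene promoters and help to switch on genes of the early cleavage embryo. Dppa3 (Stella) is a maternal and germ cell protein that holds back the methylation factor Uhrf1, and Dppa5a is a KH-domain protein of mESCs.

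Replicate 1 held 23716499 counts and replicate 2 held 20275749. Counts per 1000000 (CPM) were set on these totals. A gene entered the comparison between libraries with at least 50 counts summed over both, which 11837 genes had, and a log2 ratio of replicate 2 over replicate 1 of at least 1 in size, 2-fold, was called. There is 1 library on each side, so no p-value is given. The median log2 ratio over the 11837 genes was −0.26, and TMM factors add 0.26 to every ratio. The 8 markers fixed for ES cells had mean levels from 74.2 TPM (Esrrb) to 2285 TPM (Tdgf1) with exonic length, and Nanog stood at 774 TPM. The labels give the cell type as mESC to NPC, and 4 of 12 neural precursor markers reached 50 summed counts, Map2 (781 and 865 counts), Nes (181 and 136), Tubb3 (54 and 18) and Pax6 (46 and 23), while each of the others had at most 8 counts summed over both libraries, Sox1 and Olig2 being at 0.

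Promoter sequence from RefSeq (GRCm38.p6) was at hand for Pou5f1 and Utf1, 2 of the 7 genes. It is shown because Pou5f1 had one of the widest differences of the set, and Utf1 is the gene that was nearly undetected. RefSeq holds a further window inside the Pou5f1 gene that is not shown. Each sequence is the 250 bases on the plus strand that end at the deposited start of the gene, chr17:35505782-35506031 for Pou5f1 and chr7:139943606-139943855 for Utf1. Capitals mark matches to GGGCGG (GC box), CCAAT and AGGTCA (a nuclear receptor motif), on either strand.
Pou5f1: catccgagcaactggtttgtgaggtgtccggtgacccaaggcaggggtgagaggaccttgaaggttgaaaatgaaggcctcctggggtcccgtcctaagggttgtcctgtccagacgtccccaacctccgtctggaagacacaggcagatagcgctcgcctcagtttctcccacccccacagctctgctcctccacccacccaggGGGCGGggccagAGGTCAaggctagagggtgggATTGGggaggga
Utf1: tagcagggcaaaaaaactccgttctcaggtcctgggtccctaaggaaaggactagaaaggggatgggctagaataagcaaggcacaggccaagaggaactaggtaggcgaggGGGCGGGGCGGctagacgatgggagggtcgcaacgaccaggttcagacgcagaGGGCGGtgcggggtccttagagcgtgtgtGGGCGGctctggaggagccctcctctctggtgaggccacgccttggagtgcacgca
The Pou5f1 promoter held 1 GC box, 1 AGGTCA and 1 CCAAT box on the minus strand. The Utf1 promoter held 4 GC boxes, of which 2 overlap by a base. GGGCGG was found in 32.7% of 32807 promoter windows of this length, CCAAT in 33.8% and AGGTCA in 14%. The octamer ATGCAAAT, the motif that Oct4 itself prefers, was in neither window and in 1.6% of all windows. TATAAA and CACGTG were also searched on both strands and were in neither, against 12.4% and 6.02% of all windows. GC content was 62% for Pou5f1 and 61.6% for Utf1, against a median of 52.4%, and the sequences held 8 and 14 CpG dinucleotides against a median of 6.

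Pou5f1 (chromosome 17, 35506031 to 35510777, plus strand, mm10) gave 1129 counts for replicate 1 and 142 for replicate 2. That is 47.6 CPM (95% exact interval 44.9 to 50.5) and 7.0 CPM (5.90 to 8.25). Replicate 1 was 6.80 times replicate 2, a log2 ratio of −2.76, for which counting error alone allows −3.03 to −2.51. Only 65 of the 11837 genes, Pou5f1 included, had a log2 ratio this low or lower. With exonic length its level was 110 TPM in replicate 1 and 17.3 TPM in replicate 2, so Nanog exceeded it 7.24-fold in replicate 1 and 43.4-fold in replicate 2. Its transcript rank among all genes on that scale was 2091 in replicate 1 and 5952 in replicate 2.

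Sall4 (chromosome 2, 168748331 to 168767201, minus strand) had 1724 and 1130 counts, or 72.7 and 55.7 CPM. Its log2 ratio of −0.38 (counting interval −0.49 to −0.27) lay near the median of all genes. Its level with exonic length was 45.2 TPM in replicate 1 and 36.9 TPM in replicate 2. Utf1 (chromosome 7, 139943855 to 139945112, plus strand) had 9 and 4 counts. These are 0.379 CPM (95% exact interval 0.174 to 0.720) and 0.197 CPM (0.0538 to 0.505), where 0 counts would allow 0.126 and 0.148 CPM. The intervals of the libraries overlap widely, and no difference of Utf1 between them was detectable at this depth. Utf1 was the 1 gene of the 7 that did not enter the comparison.

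**Figure D1:**
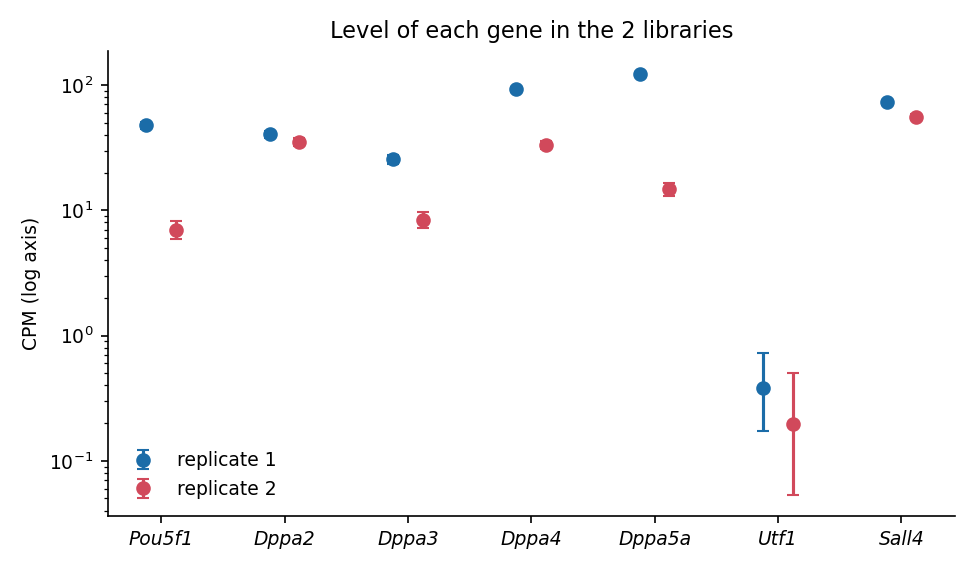
Level of each of the 7 genes in CPM (log axis) in replicate 1 (blue) and replicate 2 (red), with exact 95% intervals of the counts as bars. Pou5f1, Dppa3, Dppa4 and Dppa5a sit far lower in replicate 2, Dppa2 and Sall4 nearly level, and Utf1 is below 1 CPM in both.

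The Dppa genes did not share one pattern. Dppa5a (chromosome 9, 78367053 to 78368199, minus strand) gave 2915 counts for replicate 1 and 298 for replicate 2, equal to 123 and 14.7 CPM. Replicate 1 was 8.36 times replicate 2, a log2 ratio of −3.06 (counting interval −3.24 to −2.89), and 27 of the 11837 genes stood this low or lower. Its level with exonic length was 627 TPM in replicate 1, near the 799 TPM of Nanog, and 79.7 TPM in replicate 2, against 750 TPM of Nanog.

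Dppa4 (chromosome 16, 48283734 to 48294292, plus strand) had 2190 and 677 counts, or 92.3 and 33.4 CPM. Its log2 ratio was −1.47 (counting interval −1.59 to −1.34). Dppa2 (chromosome 16, 48310273 to 48319513, plus strand), its partner, begins 15.981 kb further along the same strand. Dppa2 had 956 and 709 counts, or 40.3 and 35.0 CPM, with a log2 ratio of −0.20 (−0.35 to −0.06) that TMM factors turn to 0.05. With exonic length the level of Dppa4 was above that of Dppa2 in each library, at 197 against 52.0 TPM in replicate 1 and 75.8 against 47.97 TPM in replicate 2.

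Dppa3 (chromosome 6, 122626423 to 122630271, plus strand) had 604 and 170 counts, or 25.5 and 8.38 CPM. Replicate 1 was 3.04 times replicate 2, and the log2 ratio was −1.60 (counting interval −1.86 to −1.36). Together, 4 of the 6 genes that entered were called, all lower in replicate 2, where 16% of all 11837 genes were lower and 0.076% were higher. The genes were partly chosen by this difference, so nothing is read from that count. In all, 16.1% of genes were past the limit in either direction. With TMM factors the same 4 ratios ran from −2.81 to −1.21, and 10.7% of all genes were past the limit, 10.3% lower and 0.389% higher. With DESeq2 size factors the 4 also stayed lower, against 9.79% of all genes past the limit, 9.26% lower and 0.532% higher. The 7 genes together took 402 CPM of replicate 1 and 154 CPM of replicate 2.

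**Figure D2:**
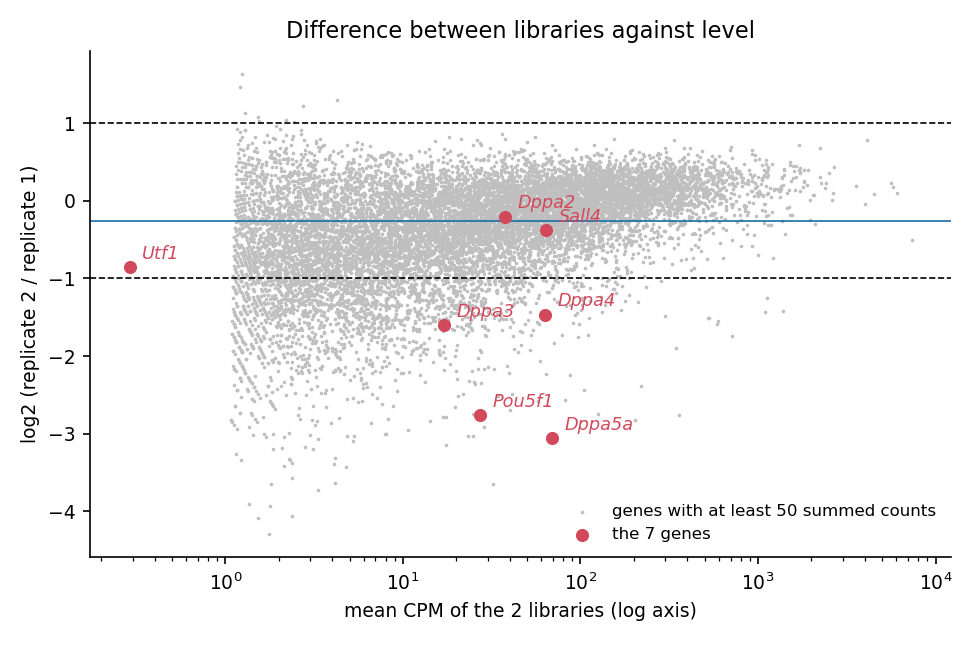
Log2 ratio of replicate 2 over replicate 1 against mean CPM (log axis) for the 11837 genes with at least 50 summed counts (grey) and the 7 genes (red), with the median of all genes (blue line) and the 2-fold limits (dashed). Dppa5a and Pou5f1 lie at the lower edge of the genes of their level, Dppa3 and Dppa4 between them and the main cloud, and Dppa2 and Sall4 within it.

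The order of the genes was compared per length, because counts grow with transcript length. One scale divides by the deposited length, which is the whole transcribed span with introns, and on it Dppa5a was first at a mean of 972 ± 1049 TPM (SD, n = 2). Dppa4 followed at 98.3 ± 58.7 TPM, Pou5f1 at 93.4 ± 94.7 TPM, Dppa3 at 72.4 ± 47.2 TPM and Dppa2 at 68.8 ± 1.30 TPM. Sall4 was at 57.3 ± 6.07 TPM and Utf1 at 3.82 ± 1.42 TPM. Of Dppa4, Pou5f1, Dppa3, Dppa2 and Sall4, replicate ranges put only Dppa2 and Sall4 in an order. Within each library Dppa4 also exceeded Dppa3 and Sall4. The replicate ranges of Dppa4, Pou5f1 and Dppa3 overlap each other and those of Dppa2 and Sall4, and in replicate 2 Sall4 exceeded Pou5f1 and Dppa3. The ranges of Dppa2 and Sall4 did not overlap, Dppa5a was above all the others, and Utf1 was below them.

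Introns made up 46.0% of the span of Dppa5a, 86.0% of that of Dppa4 and 2.46% of that of Utf1, so the scale changed the distances. With exonic length Dppa5a was at 353 ± 387 TPM and Dppa4 at 136 ± 85.8 TPM, and their ranges overlapped. Dppa3 was at 65.2 ± 44.4 TPM, Pou5f1 at 63.8 ± 65.8 TPM, Dppa2 at 50.0 ± 2.86 TPM, Sall4 at 41.1 ± 5.91 TPM and Utf1 at 0.758 ± 0.309 TPM. Here too the range of Sall4 lay within those of Pou5f1 and Dppa3. The means of Dppa3, Pou5f1, Dppa2, Sall4 and Utf1 were below those of all 8 ES cell markers on this scale, the lowest being Esrrb. In replicate 1 alone Pou5f1 was above Esrrb, at 110 against 102 TPM, and in replicate 2 alone Dppa2 was, at 47.97 against 46.0 TPM.

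The log2 ratio followed the GC content of transcripts over 9233 autosomal genes that had 50 or more counts in replicate 1 and likewise in replicate 2 (Spearman's rho −0.65, a description across genes that share the libraries). The rule that chose the 7 genes did not use GC content. It did use the difference between libraries, so the distances and ranks that follow are description only. Pou5f1 has a transcript of 57.6% GC, above 95.6% of these genes, and the trend gave −0.77 for such a gene, so 1.99 of its log2 distance remained below the trend. Of 395 genes within 1 percentage point of its GC content, 2 had a ratio as low, itself included. Dppa5a, at 49.4% GC, has an ordinary GC content, and its value was −2.65 from the trend, with 3 of the 9233 genes as far below it. Dppa3 has 45.3% GC and lay at −1.48 from the trend, and Dppa4 has 49.0% GC and lay at −1.09. Dppa2, the gene of lowest GC content among the 7 at 43.6%, lay at −0.20. Sall4, at 53.8% GC, lay above the trend at 0.27. With this trend removed the same 4 genes were lower than the limit, where 6.3% of 11751 genes with a GC content were past it, 5.5% lower and 0.8% higher. Dppa2 changed sign with the scaling and Sall4 with the GC trend, so neither has a direction.

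**Figure D3:**
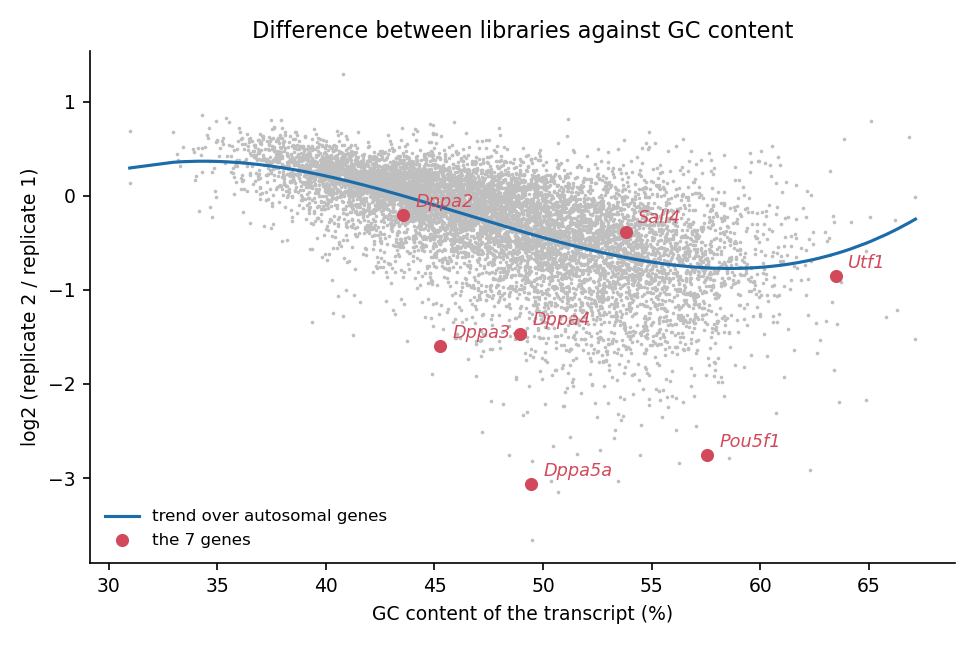
Log2 ratio of replicate 2 over replicate 1 against the GC content of the longest transcript, for 9233 autosomal genes (grey), their trend (blue) and the 7 genes (red). Dppa5a, Pou5f1, Dppa3 and Dppa4 lie below the trend, Dppa2 and Utf1 closer to it and Sall4 above it, where 15 of the grey genes reach the GC content of Utf1.

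Transcript length moved with the ratio as well, with a median of −0.57 over 266 genes of up to 1000 bases and −0.06 over 2516 genes above 5000 bases. The called genes have short transcripts, 619 bases for Dppa5a, 833 for Dppa3, 1362 for Pou5f1 and 1479 for Dppa4, and the genes within the limit longer ones, 2447 for Dppa2 and 5073 for Sall4. Against genes within 2 percentage points of GC and a factor of 1.5 in length, Pou5f1 was among the lowest 2 of 159, Dppa5a among the lowest 2 of 58, Dppa3 among the lowest 4 of 93 and Dppa4 among the lowest 20 of 387. When a trend in both features was removed, a step added after the data had been seen, Dppa5a stood at −2.31, Pou5f1 at −1.84 and Dppa3 at −1.22, and Dppa4 came within the limit at −0.95. Under that trend 5.85% of genes were past the limit, 4.91% lower and 0.945% higher. The part of GC content and length in the differences was not tested.

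Copies elsewhere in the genome can take reads from several of these genes. Of the 50-base words of the longest transcript, 38.6% for Dppa5a, 35.9% for Dppa4, 29.1% for Dppa2 and 17.7% for Dppa3 also occur in transcripts of other genes. Those genes are pseudogenes for Dppa2, Dppa3 and Dppa4, while for Dppa5a pseudogenes account for 28.2% of the words and Pigp, a protein-coding gene, is among the others. The share was 0.990% for Pou5f1 and 0 for Utf1 and Sall4. The levels of the Dppa genes are uncertain to that extent, while the counts of Pou5f1 and Sall4 rest on almost wholly unshared sequence. No gene of the table overlaps any of the 7 on either strand. Sox2, the partner of Oct4, was at 0 counts throughout. Its whole span falls within Sox2ot (226 and 204 counts), transcribed in the same direction, and featureCounts leaves out fragments that 2 genes share, so the level of Sox2 cannot be read.

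Among 30 other pluripotency genes, 28 entered and 8 were called, all lower in replicate 2, which is 28.6% against 16% of all genes. Their median log2 ratio was −0.52 against −0.26. The called genes with the widest ratios were Thap11 (−1.98), a zinc finger factor, Tcl1 (−1.89), a cofactor of Akt kinases, and Trim28 (−1.69), the corepressor of KRAB zinc finger proteins. The Nodal antagonist Lefty1 was at −1.45, the methyltransferase cofactor Dnmt3l at −1.32, the growth factor Gdf3 at −1.25, the uridine phosphorylase Upp1 at −1.10 and the cell cycle factor Mybl2 at −1.01. The most abundant of the list by mean TPM with the deposited length were Tdgf1, the Nodal co-receptor, and Lefty2, with log2 ratios of −0.26 and 0.19. With the GC trend removed 2 of the 28 were lower than the limit, Tcl1 and Thap11, which is 7.14% against 5.5% of all genes.

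The naive transcription factors had a median log2 ratio of −0.18, against −0.26 over all genes. Of 14 such factors 1 was called, the orphan receptor Esrrb at −1.24, which is 7.14% against 16% of all genes. Nanog, with 13460 and 10151 counts, had a log2 ratio of −0.18, and Klf4 one of −0.15. Nr0b1, an X-linked corepressor, was the highest at 0.54. Of the 15 entered genes for known Oct4 partner proteins 4 were called, Esrrb, Chd4, Parp1 and Wdr5, at −1.24 to −1.03, which is 26.7% against 16% of all genes. In each of these lists TMM factors bring genes back within the limit, and 5 other pluripotency genes, 0 naive factors and 0 partner genes were then past it, where 10.3% of all genes were lower. With the GC trend removed no partner gene was lower than the limit, where 5.5% of all genes were. Nr0b1, which is on both the naive and the partner lists, was then higher at 1.25, where 0.8% of all genes were.

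**Figure D4:**
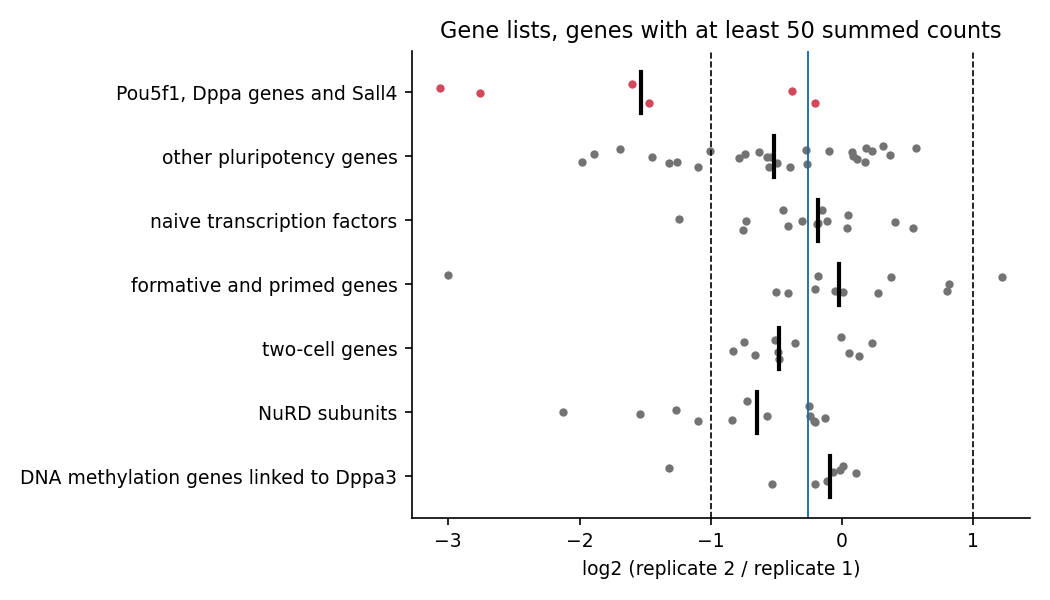
Log2 ratio of replicate 2 over replicate 1 for Pou5f1, the Dppa genes and Sall4 (red) and for 6 gene lists (grey points, each a gene with at least 50 summed counts), with each list's median (black bar), the median of all genes (blue) and the 2-fold limits (dashed). The 6 genes in red, partly chosen by this ratio, have a median of −1.53, and the lists drawn in grey have medians from −0.65 to −0.02.

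Genes tied to single members gave a mixed picture. The NuRD subunits, which Sall4 recruits, had 4 of 12 genes lower, the remodellers Chd3 (−2.13) and Chd4 (−1.10) and the subunits Mta2 (−1.54) and Mta1 (−1.26), with a list median of −0.65. That is 33.3% against 16% of all genes. With TMM factors 3 were lower, where 10.3% of all genes were, and with the GC trend removed 1 was, Chd3, where 5.5% were. The histone-binding subunit Rbbp7, the most abundant, was at −0.20. Of 8 DNA methylation genes linked to Dppa3, 1 was lower, Dnmt3l, which is 12.5% against 16% of all genes, and with the GC trend removed it was within the limit at −0.69. In that list Uhrf1 was at −0.01 and the oxidase Tet1 at 0.11. With TMM factors Nanog, Klf4, Rbbp7 and Uhrf1 turn positive, so these genes have no direction. Of 11 entered genes of the early cleavage embryo, the stage whose genes Dppa2 and Dppa4 act on, none was called, against 16% of all genes lower, and the median was −0.48. The Zscan4 genes among them share 49.6% to 95.3% of their 50-base words with transcripts of other genes, and their single values are uncertain.

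The relatives by protein family were read separately. The KH-domain genes Ooep and Khdc3, oocyte and early embryo proteins related to Dppa5a, were both lower in replicate 2, at −1.34 (3474 and 1174 counts) and −1.78 (371 and 92 counts), where 16% of all genes were lower. With the GC trend removed both stayed lower than the limit, where 5.5% of all genes were. With GC and length removed Ooep stayed lower at −1.08, where 4.91% of all genes were, and Khdc3 came within the limit at −0.90. The relatives Khdc1a, Khdc1b and Khdc1c had 0 counts in both libraries. Of Khdc3, 42.8% of the 50-base words are shared with other transcripts. The Sall4 relatives Sall1, Sall2 and Sall3 were all within the limit, at 0.20, −0.10 and 0.23, and Sall1 was the most abundant at 37.8 TPM with exonic length, with a range over the replicates that overlaps that of Sall4. In the POU family 6 genes other than Pou5f1 entered and none was lower, where 16% of all genes were. Pou2f1, a broadly expressed factor, had a level of 74.1 TPM with exonic length and a log2 ratio of 0.42. Pou3f1, a factor of the formative state, was higher in replicate 2, where 0.076% of all genes were. It had 39 and 78 counts and a log2 ratio of 1.22. Of the 12 entered formative and primed genes 1 was higher, Pou3f1, which is 8.33% against 0.076% of all genes. Another 1 was lower, the claudin gene Cldn6, which is 8.33% against 16% of all genes. Cldn6 had 79 and 8 counts and a log2 ratio of −2.999. With TMM factors 3 were higher, Pou3f1, Foxd3 and Sox4, where 0.389% of all genes were, and the median of the list was −0.02 on total counts.

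The chromosomal neighbours of the 7 genes, which the rule did not use, were taken as the nearest 3 on each side with at least 50 summed counts. Of 36 neighbours 10 were lower, which is 27.8% against 16% of all genes, and none was higher. With the GC trend removed 3 of the 36 were lower than the limit, Tcf19, Ooep and Zfp511, which is 8.33% against 5.5% of all genes. Beside Pou5f1, Tcf19, a cell cycle factor on the other strand that lies 1.96 kb beyond its end, had 80 counts in replicate 1 and 5 in replicate 2. That is a log2 ratio of −3.65 (counting interval −5.44 to −2.49), the lowest of all 36. The other neighbours of Pou5f1, H2-D1, H2-Q4, H2-Q10, Cchcr1 and Vars2, ran from −0.95 to −0.04. Of these H2-D1 (50 and 35 counts) and H2-Q10 (53 and 44 counts) had few counts. The 7 genes were partly chosen by this ratio, so the distance of Pou5f1 from its neighbours is not read.

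Beside Dppa3, the neighbours at lower coordinates were Gdf3 (−1.25, 16.4 kb away), Apobec1 (−0.81) and Mfap5 (−1.04), and at higher coordinates Nanog, Slc2a3 and Foxj2 ran from −0.31 to −0.18. Beside Dppa5a, its relative Ooep lies 8.70 kb away at −1.34, the glutathione transferase gene Gsta4 was at −1.08, and Ddx43 was at 0.25. Beside the pair of Dppa2 and Dppa4, the neighbours that were not of the family ran from −0.56 for Trat1 to 0.57 for Dzip3. Utf1 had 4 called neighbours of 6, Kndc1, Lrrc27, Zfp511 and Fuom, at −1.89 to −1.33, where 16% of all genes were lower, and with the GC trend removed Zfp511 alone of these stayed lower than the limit. Sall4 had 1, Atp9a at −1.36.

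**Figure D5:**
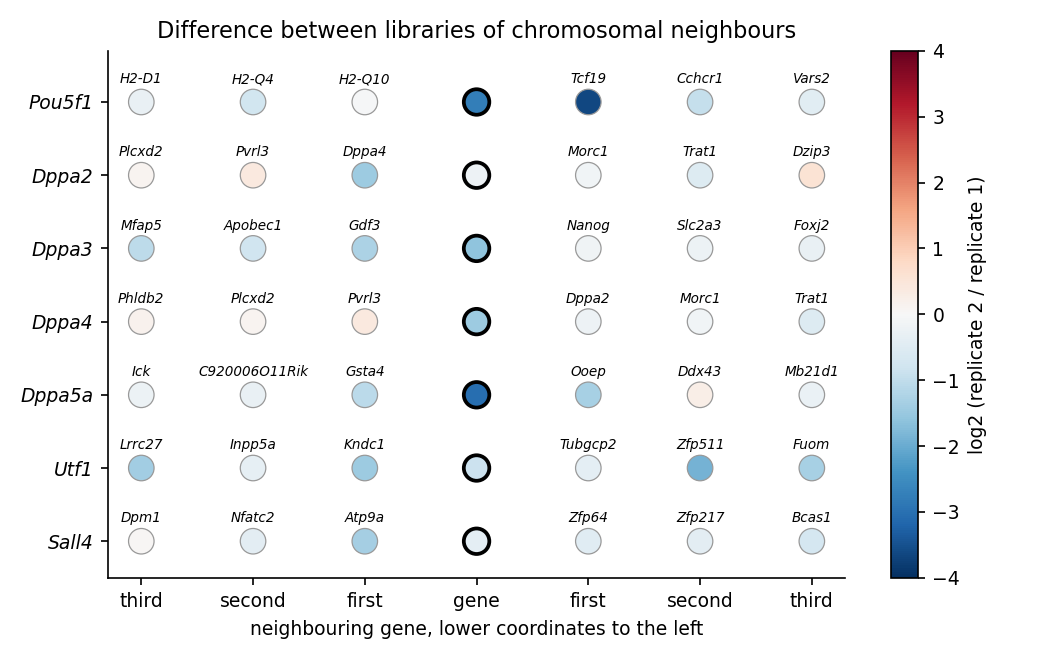
Log2 ratio of replicate 2 over replicate 1 (colour) of each of the 7 genes (centre, black rim) and of the nearest 3 genes on each side with at least 50 summed counts, in order along the chromosome and not to scale. Tcf19 beside Pou5f1 is the darkest blue of the neighbours at −3.65, and the genes to the left of Dppa3 (lower coordinates) are bluer than those to its right.

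The genes most like Pou5f1 in their pair of CPM values, by distance on the log2 scale over the 2 libraries, were H2afx (a histone variant, 1205 and 136 counts), Trh, Samm50, Mybbp1a and Phb2, at distances of 0.113 to 0.323. Genes like Dppa5a by the same measure were Cox6b1 (a subunit of cytochrome c oxidase, 2511 and 455 counts), Cfl1, Atf4 and Chchd10, at distances of 0.647 to 0.804. None of these genes is in the list of other pluripotency genes. Likeness over 2 libraries is a level and a ratio only.

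Markers of other cell types were given as a check beside these differences. Of 18 feeder fibroblast markers 3 entered, Fn1, Sparc and Twist1, and none was called, against 16% of all genes lower. The list summed to 382 CPM in the first library and to 337 CPM in the second, most of it Fn1 (314 and 301 CPM) and Sparc (59.5 and 30.2 CPM). Lum was at 0 counts, and Col1a1 had 4 and 5 counts. Of the markers that did not enter, Thy1 had the most counts, 32 in replicate 1 and 2 in replicate 2, a log2 ratio of −3.47 (counting interval −6.88 to −1.80). Of 12 primitive endoderm markers 7 entered and none was called, against 16% of all genes lower, with sums of 137 and 99.3 CPM and Amn at 0. Of 12 neural precursor markers 4 entered and 1, Tubb3 (54 and 18 counts), was lower, which is 25% against 16% of all genes, with sums of 45.2 and 51.9 CPM. Map2 made up most of these sums, at 32.9 and 42.7 CPM, while the CPM of Nes, Tubb3 and Pax6 was lower in replicate 2. With the GC trend removed Tubb3 was within the limit at −0.56. Mesoderm markers summed to 21.8 and 14.6 CPM, with 2 of 9 entered and Mesp1 at 0. Trophoblast markers summed to 32.2 and 26.9 CPM, with 1 of 8 entered and Cdx2 and Psg17 at 0. The part of other cells in the differences was not tested, and in bulk RNA fewer cells that express a gene and less RNA per cell cannot be told apart.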

How the data were processed

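Polyadenylated RNA of 2 replicates was sequenced. The authors deposited raw fragment counts per gene, made per the file headers with featureCounts (version 1.5.2) in reverse-stranded mode over transcript features of an mm10 annotation, so introns count too. The deposited length column, in an other unit (bases), is the span from start to end for 22550 of the 22556 genes. The submitters' processing notes name STAR (version 2.4.2a) and Bowtie2 (version 2.3.2), which the study's methods describe for chromatin RNA-seq, with Bowtie2 to remove ribosomal reads and STAR to align the rest to mm10. Whether the mRNA libraries were aligned in the same way is not given in the sources used here. The names of the count columns differ from the sample descriptions by a letter b, and were matched without it.

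CPM, TPM with the deposited length and TPM with exonic length (union of exons, GENCODE M21 basic, matched for 98.1% of genes) were computed. A log2 ratio was taken on CPM after adding 0.5 counts. Intervals are exact Clopper-Pearson at 95% and, like the floor of 3 counts, cover counting error only, since no molecular identifiers are named and reads of 1 molecule may repeat. GC content was that of the longest GENCODE M21 transcript, and the trend was a polynomial of degree 3. TMM factors came from edgeR (version 4.0.16) and size factors from DESeq2 (version 1.42.0). No quasi-likelihood test could be fitted with 1 group.

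The genes and lists were chosen with earlier results of these data known. Named genes are the 7, up to 6 called genes of a list by summed counts and its 2 most abundant by mean TPM, the neighbours, and the 5 most like Pou5f1 and Dppa5a, of which 1 is not reported here. Other genes named, chosen after their values were seen, are those at 0 counts, further called genes, and examples of a list's range.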

Additional observations from a re-analysis of the deposited data

How the results depend on the processing

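Of 91 alternatives over 18 results, 28 for single genes and 10 for counts or shares of called genes moved. A count or share moved if it changed more than 1.5-fold. A ratio moved if it left its counting interval, and a level if it changed by 1 SD or more. Reversal was looked for only in the ratios of the 4 called genes. None reversed, but the genes were partly chosen by these ratios, so nothing is read from that. The count of 4 called genes among the 7 was the same under TMM factors, DESeq2 size factors and removal of the GC trend. It was also the same with no filter, at least 200 summed counts and a pseudocount of 5. It became 3 with a trend in GC and length removed (added after the data had been seen), where Dppa4 came within the limit. The genes were partly chosen by this difference, so nothing is read from the count. The share of all genes called, 16.1%, was 10.7% with TMM factors, 9.79% with DESeq2 size factors, 6.3% with the GC trend removed and 5.85% with the GC and length trend removed. It was 22.3% of 22556 genes with no filter (4338 lower, 697 higher), 11.2% at 200 or more summed counts and 14.4% with a pseudocount of 5. Other pluripotency genes called went from 8 to 5 with TMM or DESeq2 factors and to 2 with either trend removed. Naive factors called went from 1 to 0 with TMM or DESeq2 factors, and the 1 called after removal of a trend was Nr0b1, higher in replicate 2. Without replicate 1 or replicate 2 the level of Pou5f1 ran from 26.5 to 160 TPM and that of Dppa5a from 230 to 1713 TPM, with the deposited length, and that of Sall4 from 53.0 to 61.6 TPM. No paired analysis was possible because both libraries belong to 1 group. With 1 library on each side of each ratio, the depth limits Utf1 in particular, at 9 and 4 counts.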
